A study of Mus musculus with 10 samples.

Results

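Cd36, Fabp4, Fabp5, Gpihbp1, Scarb1, Apoe, Apoc1, and Ch25h encode proteins that bind, carry, or modify fatty acids, lipoproteins, or cholesterol. Their transcripts were followed in lymphatic endothelial cells (LECs) and blood endothelial cells of mouse ear skin. The 8 genes were taken by name, with earlier results of these data known. They were found among the 42565 genes shared by 8 plate tables and among the 32207 genes of 2 droplet libraries. Single LECs sorted as CD31+ PDPN+ cells without CD45, CD11b, or Ter119 were sequenced by Smart-seq2, which reads whole transcripts, on 2 plates for each of 4 genotypes. The control genotypes were Cre- Tie1 fl/fl and Cre- Tie1 fl/fl,Tie2 fl/fl (Tie1/2 fl/fl), and the deleted genotypes were Prox1CreERT2;Tie1fl/fl (Tie1 iΔLEC) and Prox1CreERT2;Tie1fl/fl,Tie2fl/fl (Tie1/2 iΔLEC). In the third model, C57Bl/6j wild-type males received a control IgG or an antibody that blocks angiopoietin 2 (Ang2), and all CD31+ cells were read by droplet sequencing with 1 library per antibody.

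All pups of the plate experiment, controls included, had received 4-hydroxytamoxifen (62.5 µg) on each day from P1 to P5, and cells were collected at the end of the fourth postnatal week. Prox1-CreERT2 recombines in Prox1-expressing cells and is not meant to act in blood endothelial cells. Replicate 1 in each arm of the single floxed strain was female and all other samples were male. How many mice were pooled on a plate is not stated, and p-values therefore measure the spread between plates, which may be technical. The antibodies (20 mg/kg) were given every 3 days from P16 to P21. The label of the Ang2 antibody library calls it a control in its title and Ang2 antibody in its treatment, and the treatment was used here.

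Long-chain fatty acids reach endothelial cells from albumin and from triglyceride-rich lipoproteins. GPIHBP1 holds lipoprotein lipase on the luminal face of blood capillaries, where the enzyme releases fatty acids, CD36 takes them up at the membrane, and FABP4 and FABP5 bind them in the cytoplasm. SCARB1 exchanges cholesterol with high-density lipoprotein, and APOE and APOC1 are apolipoproteins whose genes lie side by side. CH25H makes 25-hydroxycholesterol, an oxysterol that restrains cholesterol synthesis. Collecting lymphatic vessels carry lipid and cholesterol from the tissues back to the blood. Tie receptors activate the PI3K pathway, which keeps FoxO transcription factors out of the nucleus, and the FoxO core was therefore one of the motifs searched for.

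Promoters of members with a called change on the plates were searched for motifs where a start site was held. RefSeq start sites on GRCm38.p6 were held for 3 of the 8 members, Cd36, Apoe, and Ch25h, and not for Fabp4, which was also called. For each of the 3, the 250 bases upstream of a start site are printed 5′ to 3′ with motif matches in capitals. Apoe had further start sites, whose windows held no match and are not printed. All 3 genes lie on the minus strand, the Cd36 window at chr5:17835897-17836146, the Apoe window at chr7:19699189-19699438, and the Ch25h window at chr19:34475149-34475398.
Cd36: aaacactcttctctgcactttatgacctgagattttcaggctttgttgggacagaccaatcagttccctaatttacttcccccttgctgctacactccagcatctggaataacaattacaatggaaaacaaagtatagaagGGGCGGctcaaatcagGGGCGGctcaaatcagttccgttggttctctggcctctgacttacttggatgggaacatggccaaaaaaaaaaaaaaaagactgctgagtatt
Apoe: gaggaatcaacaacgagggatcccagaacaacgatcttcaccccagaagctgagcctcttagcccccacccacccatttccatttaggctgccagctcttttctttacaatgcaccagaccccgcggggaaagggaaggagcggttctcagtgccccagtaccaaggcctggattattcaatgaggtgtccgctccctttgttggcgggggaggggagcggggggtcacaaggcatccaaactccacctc
Ch25h: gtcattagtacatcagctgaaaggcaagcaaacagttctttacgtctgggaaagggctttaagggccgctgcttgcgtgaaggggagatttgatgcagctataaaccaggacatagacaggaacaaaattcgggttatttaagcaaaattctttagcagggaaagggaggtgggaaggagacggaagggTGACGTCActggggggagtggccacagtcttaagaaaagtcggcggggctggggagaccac
Searched on both strands, the FoxO core GTAAACA was in none of these windows, and 3.17% of 32851 promoter windows of the same length held it. The GC box GGGCGG, read by SP-family factors, was found at 2 places in the Cd36 window and in 32.7% of all windows. The cAMP response element TGACGTCA was found at 1 place in the Ch25h window and in 1.55% of all windows. The Cd36 window lies inside the gene as GENCODE draws it, 52905 bases from the outermost start and in no exon, and the Ch25h window runs a few bases into the first exon of GENCODE. A match or its absence describes these letters only.

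The sorted cells carried the labelled identity and deletion. Of 3048 wells, 2705 were kept as LECs after 293 wells with fibroblast markers and 30 with keratinocyte markers were left out, and the LEC sums held 67588448 to 104138443 counts per plate. Tie1 lay between 2350 and 2732 CPM (counts scaled to a fixed library total) on the control plates and between 472 and 708 on the deleted plates, and Tek, which encodes Tie2, was at 228 to 323 CPM on control plates and at 30.7 to 52.9 in Tie1/2 iΔLEC. Summed LEC markers (7 genes) stayed between 6931 and 8374 CPM on all plates, with none of them at 0. The number of detected genes per well differed with the layout of the deposited table, 5992 to 7208 at the median for tables by symbol and 3722 to 5111 for tables by Ensembl identifier, and each genotype had 1 plate of each.

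In control LECs, Gpihbp1 and Apoe were the most abundant members per kilobase of exon, at 58.8 to 100.01 and 46.6 to 57.2 CPM per kilobase over the 4 plates, ranges that touched no other member. Ch25h followed at 11.8 to 21.9, then Scarb1 at 3.71 to 6.63, Fabp4 at 1.66 to 6.34, Cd36 at 2.48 to 3.71, and Fabp5 at 0.631 to 2.05. The ranges of Scarb1, Fabp4, and Cd36 met or overlapped, as did those of Fabp4 and Fabp5. The length used joins all annotated exons of a gene and can exceed that of its main transcript. For Fabp4 this union of 4489 bases covers the whole gene from start to end. The order per kilobase therefore holds for these lengths only, and that of Scarb1, Fabp4, Cd36, and Fabp5 was not resolved. Apoc1 had 3 counts in all LEC wells of the 8 plates together. It was at 0 on 6 plates, where a count of 0 allows up to 0.0288 to 0.0444 CPM, and was not tested, while its neighbour Apoe, 3448 bases away, was among the highest.

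Cd36 was higher in both deletions, most so when both receptors were deleted. Its summed LEC level was 9.76 and 8.89 CPM in Tie1 fl/fl and 31.2 and 58.8 CPM in Tie1 iΔLEC. In the double floxed strain it was 10.1 and 13.3 CPM in Tie1/2 fl/fl and 124 and 197 CPM in Tie1/2 iΔLEC. The 4 control plates lay below both Tie1 iΔLEC plates and these below both Tie1/2 iΔLEC plates, an order shown by 0.793% of 19787 genes. In Tie1/2 iΔLEC the log2 fold change was 3.78 ± 0.41 (SE, n = 2 against 2), or 13.7-fold, with an adjusted p of 0.00489 (edgeR quasi-likelihood test, Benjamini-Hochberg adjustment, as for all adjusted p below). The same test gave 2.30 ± 0.39 in Tie1 iΔLEC with an adjusted p of 0.484, where none of 19787 genes passed (0%), 862 had an unadjusted p under the threshold (4.36%), and DESeq2 called 178. DESeq2 gave Cd36 an adjusted p of 9.04e-06 there, and the difference between the 2 deletions (1.48, adjusted p = 0.573 by edgeR) was not called. The call in Tie1/2 iΔLEC held in 16 of 17 alternatives and was lost without Tie1/2 fl/fl replicate 1, with an edgeR adjusted p of 0.0643.

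The rise of Cd36 was seen in more wells and was not carried by a few. With each well thinned to 50000 counts, Cd36 was detected in 10.1% and 3.80% of Tie1 fl/fl wells and in 30.5% and 18.3% of Tie1 iΔLEC wells. The shares were 4.04% and 10.2% in Tie1/2 fl/fl and 35.7% and 56.0% in Tie1/2 iΔLEC, so deleted and control plates did not overlap. The share of all genes without overlap in thinned detection was not computed. These shares come from the same wells as the CPM values and are no separate evidence of a change. The highest single well gave 22.2% to 25.8% of the Cd36 counts of a control plate and 3.71% to 8.38% of those of a deleted plate. Compared within tables of 1 layout, the ratio of deleted to control CPM was 3.19 and 6.61 for Tie1 and 14.8 and 12.2 for Tie1/2 deletion.

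The sum over markers of pericytes and smooth muscle, cells in which the droplet libraries also held Cd36, was higher on the deleted plates. The 7 markers summed to 9.19 to 18.2 CPM in Tie1 fl/fl and 51.7 to 52.7 CPM in Tie1 iΔLEC. The sums were 25.8 to 67.8 CPM in Tie1/2 fl/fl and 147 to 169 CPM in Tie1/2 iΔLEC, with none at 0 on the deleted plates. Kcnj8 alone was at 151 and 133 CPM in Tie1/2 iΔLEC and at 29.3 and 23.1 CPM in Tie1 iΔLEC. The highest of the 7 in Tie1/2 fl/fl were Acta2 at 25.3 CPM and Kcnj8 at 17.6 CPM. Summed markers of capillary blood endothelial cells (6 genes), the droplet cells with most Cd36, went the other way. They summed to 1147 to 1205 CPM in Tie1 fl/fl and 1013 to 1050 CPM in Tie1 iΔLEC. The sums were 1210 to 1465 CPM in Tie1/2 fl/fl and 616 to 640 CPM in Tie1/2 iΔLEC. Kdr alone was at 871 and 732 CPM in Tie1/2 fl/fl and at 412 and 391 CPM in Tie1/2 iΔLEC. It was at 654 and 642 CPM in Tie1 fl/fl and at 648 and 580 CPM in Tie1 iΔLEC. The study reports lower Kdr in LECs with both receptors deleted. This sum therefore does not separate blood capillary cells from LECs. A second list held 6 markers shared by blood endothelial types. They summed to 683 to 716 CPM in Tie1 fl/fl and 714 to 855 CPM in Tie1 iΔLEC, which overlap. The sums were 693 to 753 CPM in Tie1/2 fl/fl and 998 to 1032 CPM in Tie1/2 iΔLEC, with none of the markers at 0. Aqp1 alone was at 705 and 647 CPM in Tie1/2 iΔLEC. The highest of these markers in Tie1/2 fl/fl were Podxl at 230 CPM and Emcn at 284 CPM. With coarser clusters, Kcnj8 and Aqp1 were among the leading genes of the wells named capillary LECs. The part of these lists in the Cd36 result was not tested.

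Fabp4, an adipocyte and capillary fatty acid carrier, fell in Tie1/2 iΔLEC. It was at 28.5 and 20.2 CPM in Tie1 fl/fl, 2.23 and 5.73 in Tie1 iΔLEC, 7.47 and 19.0 in Tie1/2 fl/fl, and 0.192 and 0.739 in Tie1/2 iΔLEC. Its deleted plates lay below all control plates, as those of 21.4% of genes did against their own controls with Tie1/2 deletion, and both double-deleted plates below both single-deleted ones, an order shown by 1.18% of genes. In Tie1/2 iΔLEC it fell by 4.82 ± 0.89 (SE) on the log2 scale, with an edgeR adjusted p of 0.0491, and in Tie1 iΔLEC the change was -2.57 ± 0.80 with an adjusted p of 1 by edgeR and 0.0382 by DESeq2, called in 2 of 17 alternatives. The Tie1/2 call was kept in 4 of 17 alternatives (adjusted p from 7.38e-09 to 0.444) and was lost when any single plate was left out. The Tie1/2 change was -2.44 with fibroblast and keratinocyte wells left in, -6.02 without Tie1/2 iΔLEC replicate 2, and -4.02 without Tie1/2 fl/fl replicate 2. In Tie1/2 iΔLEC, 1 well gave 100% of the Fabp4 counts of replicate 1 and 87.0% of those of replicate 2. Summed adipocyte markers (5 genes) were at 0.201 to 2.82 CPM on all plates. In the droplet libraries Fabp4 was higher in blood endothelial cells than in LECs, and highest in venous cells. Marker sums of these cells are given with Cd36 and Apoe, and their part in the Fabp4 result was not tested.

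Fabp5 and Gpihbp1 showed no called change. Fabp5, the epidermal-type carrier, was at 5.90 and 7.30 CPM in Tie1 fl/fl, 8.08 and 1.26 in Tie1 iΔLEC, 2.25 and 4.08 in Tie1/2 fl/fl, and 1.14 and 3.46 in Tie1/2 iΔLEC. Gpihbp1 was at 188 and 195 CPM in Tie1 fl/fl, 149.8 and 163 in Tie1 iΔLEC, 150.1 and 255 in Tie1/2 fl/fl, and 97.8 and 214 in Tie1/2 iΔLEC. For both genes the plates of Tie1/2 fl/fl and Tie1/2 iΔLEC overlapped, and with Tie1 deletion Gpihbp1 lay below its controls, as did 13.9% of genes. The Tie1/2 log2 fold change was -0.47 ± 0.93 for Fabp5 and -0.38 ± 0.37 for Gpihbp1 (SE), with edgeR adjusted p of 0.941 and 0.8288.

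**Figure D1:**
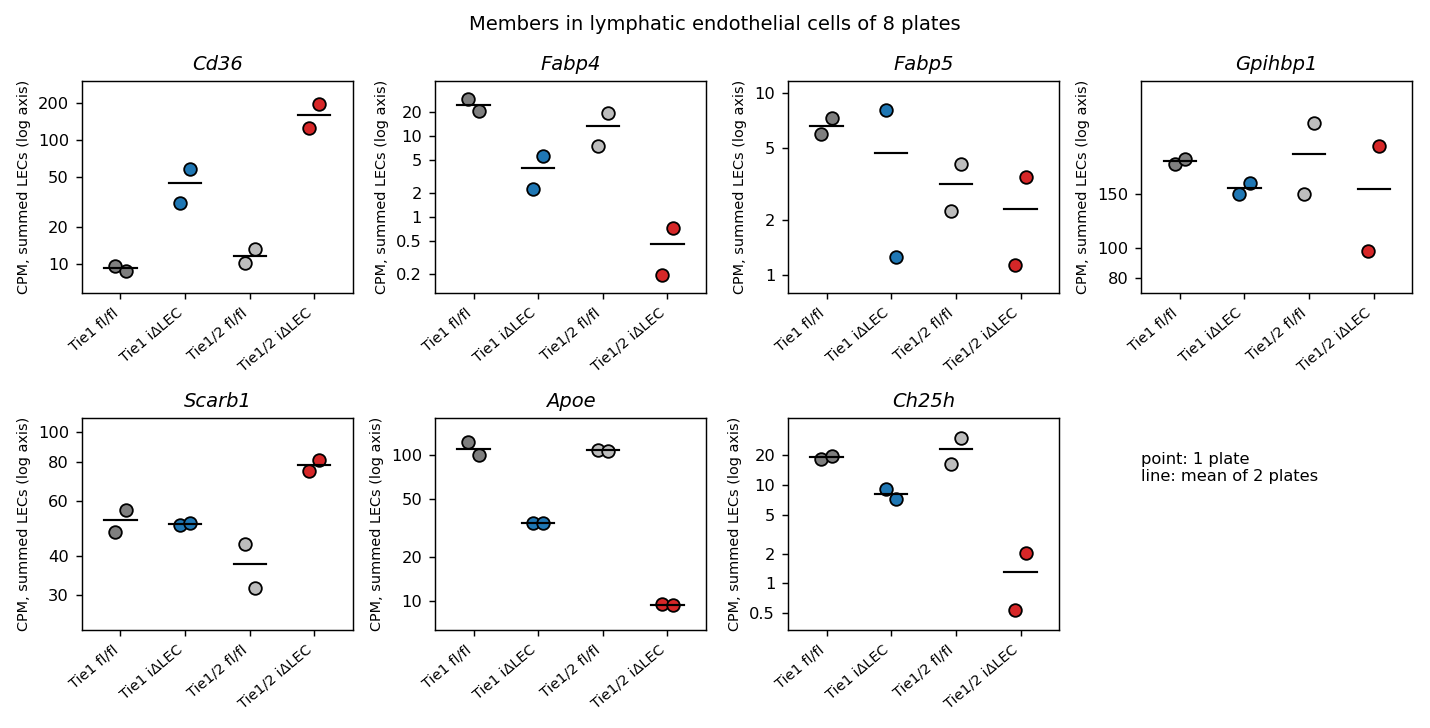
Summed LEC level (CPM, log axis) of 7 members on 8 plates, with 1 point per plate and a line at the mean of 2 plates. Cd36 runs from about the level of 8.89 CPM in controls to 197 CPM in Tie1/2 iΔLEC, and Fabp4, Apoe, and Ch25h run the other way in both deletions.

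Among the lipoprotein genes, Apoe fell in Tie1/2 iΔLEC while its partner receptor Scarb1 was not called. Apoe was at 122 and 99.7 CPM in Tie1 fl/fl and at 34.3 and 34.1 CPM in Tie1 iΔLEC. It was at 109 and 107 CPM in Tie1/2 fl/fl and at 9.42 and 9.32 CPM in Tie1/2 iΔLEC, so replicate plates lay close together. The 3 levels were apart, in an order from control to double deletion shown by 1.18% of genes. The Tie1/2 log2 fold change was -3.51 ± 0.25 (SE) with an edgeR adjusted p of 0.000987. In Tie1 iΔLEC it was -1.68 ± 0.23 with an adjusted p of 0.267 by edgeR and 3.52e-11 by DESeq2. The step from single to double deletion (-1.84 ± 0.32, edgeR adjusted p = 0.117) was not called. With the mean of CPM over wells in place of summed counts, the Tie1 change was -0.12 and the Tie1/2 change -3.30 with a limma adjusted p of 0.0555, the only one of 17 alternatives in which the Tie1/2 call was lost.

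Keratinocytes held the highest Apoe in the droplet libraries, and their markers were also found in the LEC sums of every plate. Their 6 markers summed to 11.4 to 47.5 CPM in Tie1 fl/fl, 10.3 to 31.99 in Tie1 iΔLEC, 35.4 to 46.3 in Tie1/2 fl/fl, and 13.8 to 16.8 in Tie1/2 iΔLEC, with at most 1 of them at 0. Apoc1, which keratinocytes also hold, had no count on the deleted plates and at most 2 on a control plate. Summed venous endothelial markers (7 genes) were at 1303 to 1461 CPM in Tie1/2 fl/fl and 450 to 732 in Tie1/2 iΔLEC, with 1 or 2 at 0. Most of each sum was Ephb4, at 875 and 757 CPM in Tie1/2 fl/fl and at 691 and 399 CPM in Tie1/2 iΔLEC. Sele had no count on these plates. Fibroblast markers (5 genes) were at 41.9 to 235 CPM in Tie1/2 fl/fl and 19.1 to 42.0 CPM in Tie1/2 iΔLEC. What part, if any, cells of these types have in the Apoe result was not tested.

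Scarb1 was at 47.7 and 56.3 CPM in Tie1 fl/fl, 50.1 and 50.9 in Tie1 iΔLEC, 43.8 and 31.5 in Tie1/2 fl/fl, and 74.8 and 81.7 in Tie1/2 iΔLEC. The double-deleted plates lay above all others, as did both Tie1/2 iΔLEC plates against their own controls for 16.1% of genes. In Tie1/2 iΔLEC its log2 fold change of 1.07 ± 0.28 (SE) had an edgeR adjusted p of 0.184 and a DESeq2 adjusted p of 0.00987, and 2 of 17 alternatives called it. In Tie1 iΔLEC the change of -0.03 had an edgeR adjusted p of 1.

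Ch25h also fell in Tie1/2 iΔLEC. It was at 18.5 and 19.7 CPM in Tie1 fl/fl, 9.07 and 7.19 in Tie1 iΔLEC, 16.4 and 30.4 in Tie1/2 fl/fl, and 0.533 and 2.05 in Tie1/2 iΔLEC. All control plates lay above both Tie1 iΔLEC plates and these above both Tie1/2 iΔLEC plates, an order shown by 1.18% of genes. The Tie1/2 log2 fold change was -4.19 ± 0.69 (SE) with an edgeR adjusted p of 0.0303, and in Tie1 iΔLEC it was -1.23 ± 0.62 with an adjusted p of 1. The call held in 10 of 17 alternatives (adjusted p from 2.29e-10 to 0.146) and was lost without either Tie1 iΔLEC plate, either Tie1/2 fl/fl plate, or Tie1/2 iΔLEC replicate 1, with the replicate block, and with the 4 plates of the strain alone. The change was -5.38 without Tie1/2 iΔLEC replicate 2, -3.60 without replicate 1, and -3.55 by the mean of CPM over wells. A single well gave 86.1% and 66.2% of the Ch25h counts on the double-deleted plates. Ch25h shares 159 exon bases with Gm26902 on the other strand, and Smart-seq2 does not mark the strand, so reads of the pair cannot be told apart there.

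Together, 1 of the 7 tested members rose and 3 fell in Tie1/2 iΔLEC, where 0.308% of all genes rose and 0.895% fell (1.2% in all, and 10.7% at an unadjusted p under the threshold). The members were chosen with earlier results of these data known, so these shares cannot show an excess among them. The same 4 members were called in the average of both deletions, in which 1.02% of genes were called and 9.89% passed unadjusted, with log2 fold changes of 3.04 for Cd36, -3.69 for Fabp4, -2.60 for Apoe, and -2.71 for Ch25h. Their edgeR adjusted p were 0.00385, 0.0325, 0.00107, and 0.0402, and the calls held in 16, 5, 15, and 8 of 16 alternatives. In the difference between the deletions, 0 of the 7 members and 26 of 19787 genes (0.131%) were called, 1467 genes (7.41%) at an unadjusted p under the threshold and 446 by DESeq2, which called 2 members.

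Some genes of the pathways around the members were called in Tie1/2 iΔLEC, where 0.895% of all genes fell and 0.308% rose. The gene lists were also chosen with earlier results of these data known, so their shares cannot show an excess. Of 15 further genes of fatty acid uptake and binding that were tested, 2 fell in Tie1/2 iΔLEC and the median log2 fold change was -0.40, beside 0.01 over all genes. They were Pparg, the nuclear receptor that drives Fabp4 and Cd36 in fat, and Slc27a3, a fatty acid transport protein family member with acyl-CoA synthetase activity. Pparg was at 69.4 and 58.0 CPM in Tie1/2 fl/fl and at 7.398 and 9.36 CPM in Tie1/2 iΔLEC (log2 fold change -2.92, edgeR adjusted p = 0.00456), with 80.4 and 51.3 in Tie1 fl/fl and 47.2 and 38.7 in Tie1 iΔLEC. Slc27a3 was at 52.1 and 29.8 CPM in Tie1/2 fl/fl and at 7.26 and 4.54 CPM in Tie1/2 iΔLEC (-2.77, adjusted p = 0.0278 by edgeR). The deleted plates of both genes lay below their controls, and neither gene was called in Tie1 iΔLEC. Mgll, which splits monoglycerides, was the 1 called gene among 23 of fatty acid oxidation, storage, and synthesis. It rose from 49.2 and 61.1 CPM to 193 and 275 CPM in Tie1/2 iΔLEC (2.09, edgeR adjusted p = 0.00921) and was at 47.8 and 46.4 CPM in Tie1 fl/fl against 119 and 149.1 CPM in Tie1 iΔLEC.

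None of 25 cholesterol synthesis genes was called by edgeR in either deletion, and their medians of 0.11 with Tie1 and 0.04 with Tie1/2 deletion were near the medians over all genes of 0 and 0.01. Of 13 further lipoprotein receptor, apolipoprotein, and efflux genes and of 14 further oxysterol and LXR target genes, 0 were called in either deletion, with Tie1/2 medians of 0.17 and -0.02. Over all genes edgeR called 0% with Tie1 and 1.2% with Tie1/2 deletion, so the lack of calls in lists of this size lies near that share. Abca1 and Abcg1, the LXR-driven cholesterol exporters, changed by 0.26 and 0.06 on the log2 scale in Tie1/2 iΔLEC.

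Between LEC classes, 5 of the members differed in level. The share of all genes that would pass the same test was not computed, so this count does not set the members apart. Wells were clustered without the members, and 7 classes that share no well were formed. The capillary-marker class joined the clusters in which 6 of 6 capillary markers were at least 1.5-fold above collector and valve wells, and the collector and valve classes were named by their own markers. Capillary markers were also raised in wells outside it, 5 of 6 in interferon wells, 4 of 6 in wells led by Thbs1, 3 of 6 in proliferating wells, and 2 of 6 in wells led by Prn. Apoe, Fabp4, and Fabp5 were highest in collector LECs. On the 4 control plates Apoe averaged 346 ± 61.4 CPM in the collector class, 32.1 ± 6.00 in the capillary-marker class, and 52.2 ± 15.0 in the valve class (SD). Fabp4 averaged 59.5 ± 25.9, 3.57 ± 2.13, and 2.41 ± 1.88 CPM and Fabp5 14.5 ± 11.5, 0.929 ± 1.07, and 1.21 ± 1.81 CPM in the same order.

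Over all 8 plates, Fabp5 was higher in the collector than in the capillary and in the valve class on 8 of 8 plates (exact permutation test of paired plates, two-sided, adjusted p = 0.0375 for each over 24 tests, the smallest unadjusted p being 0.00781). Fabp4 was higher in collectors than in either other class on 7 plates and lower on 0 (adjusted exact p = 0.0469). Apoe was higher in collectors than in capillaries on 7 of 8 plates (adjusted exact p = 0.0469), but against valves on 6 of 8 (adjusted exact p = 0.332). On 1 plate Fabp4 had no count in the classes compared, and on the 4 control plates alone no pair could be called, since the smallest exact p was 0.125.

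Gpihbp1 was lowest in valves, and Ch25h was lower in valves than in capillary wells. Gpihbp1 averaged 221 ± 45.0 CPM in the capillary-marker class, 288 ± 90.7 in collectors, and 66.2 ± 40.3 in valves (SD, n = 4 control plates), and it was higher in each of these than in valves on 8 of 8 plates (adjusted exact p = 0.0375). Ch25h averaged 24.6 ± 14.0, 25.2 ± 16.2, and 6.16 ± 5.76 CPM, and capillary exceeded valve wells on 8 of 8 plates (adjusted exact p = 0.0375), while collector wells exceeded valve wells on 5 plates and lay lower on 2, which was not called (adjusted exact p = 0.15). Cd36, at 11.7 ± 6.55, 8.43 ± 6.90, and 10.4 ± 6.29 CPM, and Scarb1, at 35.4 ± 21.9, 38.5 ± 17.4, and 74.6 ± 44.9 CPM, differed by less than the spread between plates. Of the 24 pairs tested, 8 passed, and 0 passed when any plate other than Tie1/2 iΔLEC replicate 1 was left out. With a plate left out the smallest exact p is larger, and after adjustment a pair passes only where several pairs reach that p. The fall to 0 therefore does not show that the calls depend on a given plate.

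**Figure D2:**
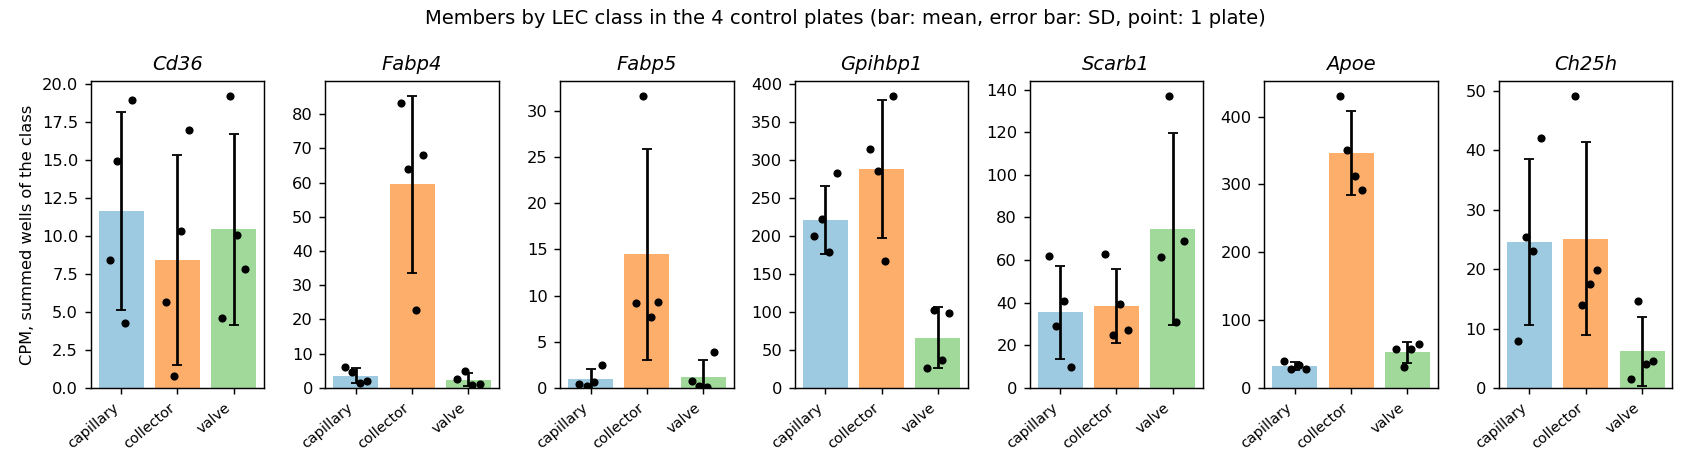
Level of 7 members (CPM of the summed wells, linear axis from 0, a scale for each gene) in capillary-marker, collector, and valve classes of the 4 control plates, with bars at the mean, error bars for the SD, and 1 point per plate. Apoe reaches 346 CPM and Fabp4 59.5 CPM in collectors, while Cd36 stays between means of 8.43 and 11.7 CPM.

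The number of wells per class also differed between genotypes. The collector class had 58 and 74 wells in Tie1 fl/fl and 54 and 53 in Tie1 iΔLEC, but 86 and 75 in Tie1/2 fl/fl and 18 and 16 in Tie1/2 iΔLEC. Wells led by Thbs1 numbered 22 and 31 in Tie1/2 fl/fl and 83 and 68 in Tie1/2 iΔLEC (27 and 42 in Tie1 fl/fl, 40 and 48 in Tie1 iΔLEC), and wells led by Prn 7 and 8 against 24 and 25 (4 and 15, 11 and 11). In a sum over LECs, a change in the number of cells of a class and a change in RNA per cell cannot be told apart, and the levels within classes are therefore given. Within collectors, Apoe was at 431 and 350.1 CPM in Tie1 fl/fl, 61.5 and 102 in Tie1 iΔLEC, 312 and 291 in Tie1/2 fl/fl, and 2.08 and 16.2 in Tie1/2 iΔLEC. The 3 levels were apart, and in Tie1/2 iΔLEC collectors Apoe fell by 5.07 ± 0.82 on the log2 scale (edgeR adjusted p = 0.0450), where 0.377% of 14860 genes were called and 27.1% had both deleted plates below both controls. This call was lost with coarser and with finer clusters (adjusted p of 0.176 and 0.148).

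In capillary-marker wells, Apoe was at 40.2 and 27.5 CPM in Tie1 fl/fl and 42.7 and 21.6 in Tie1 iΔLEC, which overlap, and at 33.3 and 27.5 CPM in Tie1/2 fl/fl and 3.10 and 7.80 in Tie1/2 iΔLEC. In valve wells it was at 57.1 and 30.4 CPM in Tie1 fl/fl, 30.2 and 38.1 in Tie1 iΔLEC, 56.6 and 64.6 in Tie1/2 fl/fl, and 31.4 and 27.0 in Tie1/2 iΔLEC. The difference between the 2 deletions was -2.48 ± 0.81 in capillary-marker, -2.85 ± 0.99 in collector, and -0.68 ± 0.83 in valve wells, and none was called (edgeR adjusted p of 0.597, 0.539, and 0.969). Apoe was lower in 7 of 7 classes with Tie1/2 deletion and in 6 of 7 with Tie1 deletion. The classes come from the same 8 plates, and the share of all genes with such a count was not computed.

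Cd36 was higher in 7 of 7 classes with either deletion, by at least 0.40 on the log2 scale with Tie1 and 2.40 with Tie1/2 deletion. As for Apoe, the share of all genes with such a count was not computed. In the capillary-marker class it was at 8.44 and 14.9 CPM in Tie1 fl/fl, 47.9 and 63.4 in Tie1 iΔLEC, 4.29 and 18.9 in Tie1/2 fl/fl, and 131 and 217 in Tie1/2 iΔLEC. In collectors the values were 5.65 and 0.758, 20.0 and 59.0, 10.3 and 17.0, and 186 and 194 CPM in the same order, and in valves 4.60 and 19.3, 21.6 and 20.2, 10.1 and 7.86, and 166 and 178 CPM. In wells led by Thbs1 they were 42.7 and 0.282, 42.9 and 104, 59.4 and 1.80, and 109 and 267 CPM. Deleted plates lay above their controls in the capillary-marker, collector, and valve classes, as they did with Tie1/2 deletion for 17.5%, 13.9%, and 15.9% of the genes tested in each. No class was called by edgeR, which called 0.439%, 0.377%, and 0.267% of genes with Tie1/2 deletion in the 3 classes and 0% with Tie1 deletion. With Tie1/2 deletion the log2 fold changes were 3.87 ± 0.71, 3.80 ± 0.99, and 4.26 ± 0.77 (SE) with adjusted p of 0.0741, 0.218, and 0.0802. With coarser clusters the capillary and valve values passed (adjusted p of 0.0189 and 0.0358), and with finer clusters the capillary value (0.0348).

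Fabp4 in collectors was at 83.3 and 64.1 CPM in Tie1 fl/fl, 6.23 and 32.1 in Tie1 iΔLEC, 22.7 and 68.0 in Tie1/2 fl/fl, and 0 and 14.2 in Tie1/2 iΔLEC. Deleted plates lay below their controls in both strains, yet neither change was called (edgeR adjusted p of 1 and 0.560). Ch25h had no count in the 18 and 16 collector wells of the Tie1/2 iΔLEC plates, against 17.5 and 19.9 CPM in Tie1/2 fl/fl, and was at 0.0437 and 3.29 CPM in capillary-marker wells against 23.0 and 42.0 CPM. Neither was called by edgeR (adjusted p of 0.164 and 0.382).

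**Figure D3:**
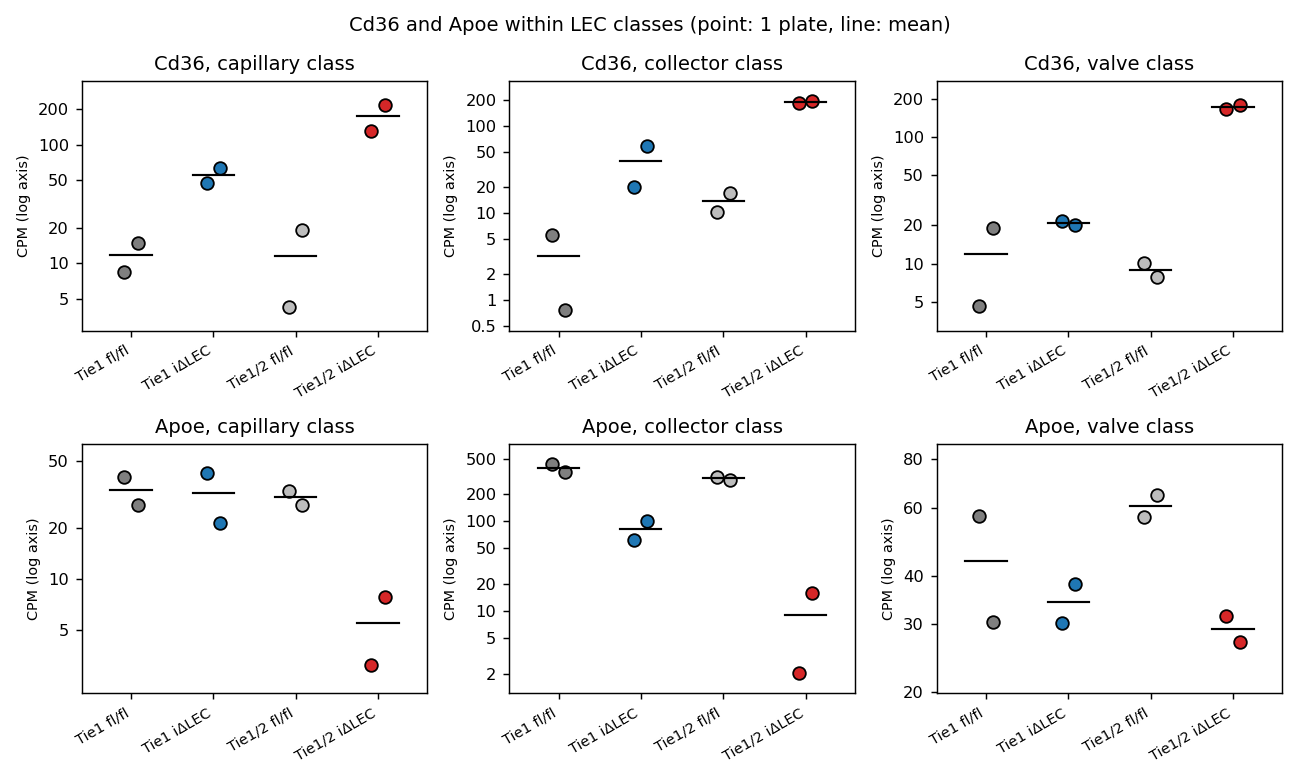
Cd36 (top) and Apoe (bottom) within capillary-marker, collector, and valve classes (CPM, log axis), with 1 point per plate and a line at the mean. Cd36 sits at 131 to 217 CPM in all 3 classes of Tie1/2 iΔLEC, and Apoe in collectors runs from 431 down to 2.08 CPM.

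In the droplet libraries, blood endothelial cells held more of 7 members than LECs. The IgG library had 1308 LECs and 1241 blood endothelial cells with a median of 11730 and 8875 unique molecular identifiers (UMIs), and with 1 library per antibody no test was possible. Intervals at 95% cover counting error only. Fabp4 was at 10284 CPM in blood endothelial cells and 466 CPM in LECs, Cd36 at 1222 and 42.5, Scarb1 at 1095 and 31.8, Fabp5 at 959 and 58.1, and Gpihbp1 at 1075 and 191. Apoe was at 872 CPM in blood endothelial cells and 73.3 CPM in LECs, and Ch25h at 25.0 and 5.81. Gpihbp1 had the smallest gap of the fatty acid genes.

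Free RNA puts UMIs into cells that do not make a transcript, so cells thinned to 3000 UMIs were set beside fibroblasts, cartilage cells, and keratinocytes. Cd36 was in 8.18% of LECs and in 5.24%, 4.89%, and 8.85% of those cells, so it did not stand above background over all IgG LECs together. Its UMIs per Fabp4 UMI were 0.350 in capillary LECs, 0.0321, 0.0973, and 0.143 in those cells, and 0.119 in blood endothelial cells. Scarb1 was in 6.22% against 8.99%, 11.1%, and 7.74%. Its UMIs per Fabp4 UMI were 0.0576, 0.307, and 0.125 in those cells and 0.106 in blood endothelial cells. The place of Scarb1 against background in LECs was therefore not resolved. Fabp4 was in 33.8% against 25.2%, 23.1%, and 29.8%, close to background over all LECs together. Its UMIs were spread unevenly over IgG LECs. They were 5285 of 7758776 in the cluster led by Gdf15 and Lcn2 and 452 of 3425549 in capillary LECs. Thinned shares of single LEC clusters were not set beside background. Fabp5 was in 8.16% against 17.1%, 12.2%, and 17.8%. Its UMIs per Fabp4 UMI were 0.157, 0.323, and 0.978 in those cells and 0.0933 in blood endothelial cells. Those cells therefore set no background for Fabp5, and its place against background in LECs was not resolved. Ch25h was in 1.48% against 0.6005%, 0.379%, and 0%. Gpihbp1, in 30.2% of LECs against 9.15%, 3.78%, and 8.13%, stood above background. Median depths before thinning were 11730, 18840, 20294, and 10215 UMIs.

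The members differed in the blood endothelial type that held most of them. Cd36 was highest in capillary cells led by Slc28a2, Prnd, and Apln (2358 CPM, interval 2281 to 2437) and next in capillary cells led by Car4 and Rgcc (1720.1 CPM). Gpihbp1 was highest in the Car4 cells (2065 CPM, interval 2015 to 2116), then in the Apln cells (1903 CPM), and was at 159 and 336 CPM in the 2 venous clusters. Fabp4 and Fabp5 were highest in venous cells led by Sele, Selp, and Ackr1, at 17375 and 1777 CPM, an activated venous type by these adhesion genes. Scarb1 was highest in cells led by Lrat and Apcdd1 (2098 CPM, interval 2020.3 to 2179). For these 5 genes the interval of the highest cluster did not overlap that of the next.

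Outside endothelium, Apoe was highest in keratinocytes (8712 CPM) and cartilage cells (3765 CPM), ahead of venous cells led by Slfn4 (1869 CPM). Apoc1 was at 592 CPM in keratinocytes, at 93.4 CPM in proliferating cells, and at 0.539 CPM in LECs and 0.412 CPM in blood endothelial cells, 9 and 5 UMIs in all. Ch25h was low everywhere and highest in Sele venous cells (78.5 CPM, interval 66.6 to 92.0). On the plates, the 30 keratinocyte wells left out likewise held Apoe at 1245 CPM.

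**Figure D4:**
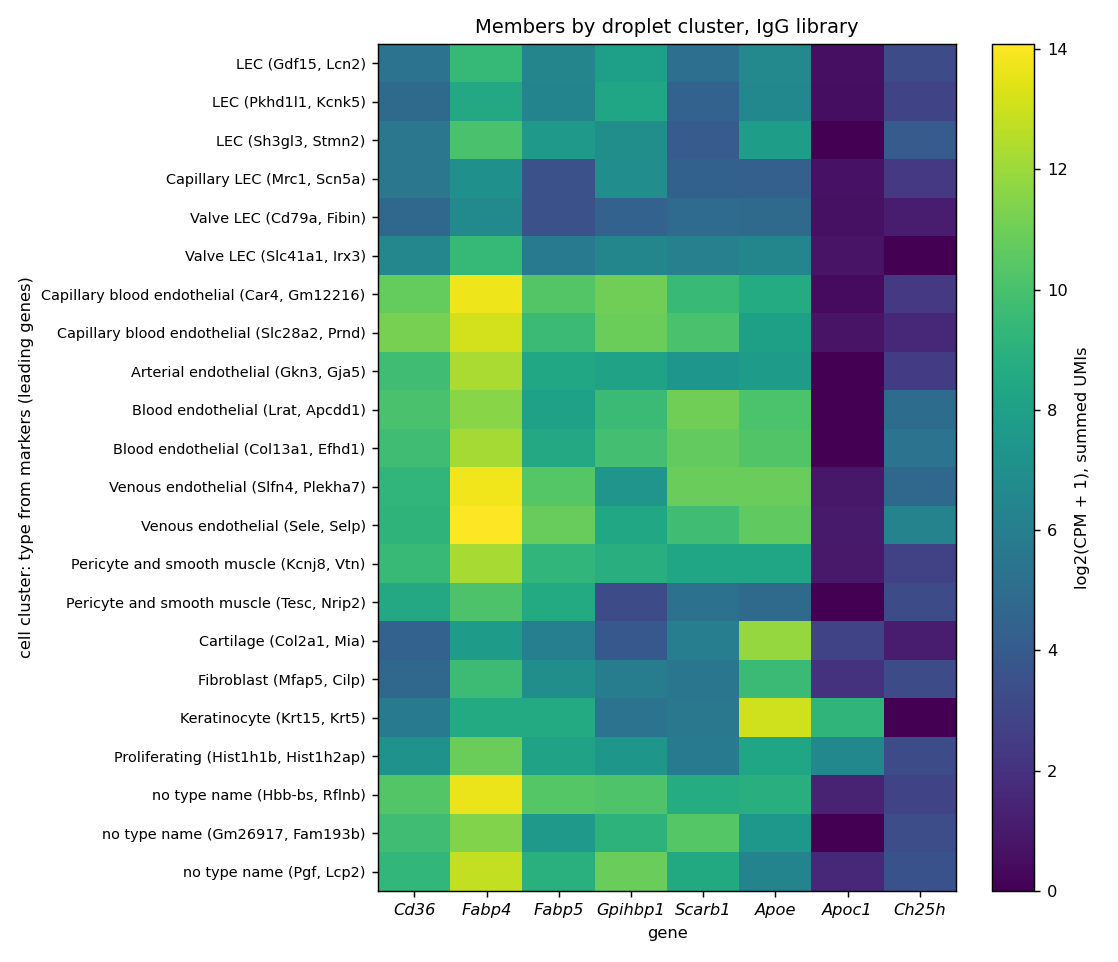
Level of the 8 members, log2(CPM + 1) of summed UMIs, in 22 clusters of at least 20 cells of the IgG library, named by markers with leading genes in parentheses. Fabp4 is bright across blood endothelium, up to 17375 CPM, Apoe in keratinocytes and cartilage cells, and Apoc1 in keratinocytes, at 592 CPM.

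The genes most like each member were sought over 44 sums of cluster and library and 9219 genes, as a description in which libraries and depth are shared. Cd36 was closest to Zfp366, C1qtnf9, and Stk10 (Pearson r of log2 CPM from 0.93 to 0.95), Gpihbp1 to Cd300lg, Ctla2a, and Ccdc85b (0.90 to 0.93), and Scarb1 to Sp100, Adgrg1, and Flt1 (0.92 to 0.93). Fabp4 was closest to Rflnb, Ly6c1, and AU021092 (0.90 each), and Fabp5 to Fabp4, Abracl, and Hspb1 (0.82 to 0.85). Apoe was closest to Ass1, Lgals3, and Nt5e (0.78 to 0.83), Apoc1 to Fgfbp1, Trim29, and Tfap2b (0.89 to 0.90), and Ch25h to Selp, Abcg2, and Vwf (0.71 to 0.77). Ch25h thus had the loosest neighbours and Cd36 the closest.

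With the Ang2 antibody, Cd36 was higher and Fabp4, Gpihbp1, Apoe, and Ch25h were lower in the sum over LECs, 745 of which were kept. Cd36 was at 42.5 CPM with IgG and 86.6 CPM with Ang2 antibody, a ratio of 2.04 (interval 1.84 to 2.26), and among 8650 genes averaging 10 CPM or more, 2.4% were at least 1.5-fold higher. Its thinned share of LECs was 8.18% with IgG and 17.0% with Ang2 antibody, where fibroblasts, cartilage cells, and keratinocytes had 3.05%, 6.00%, and 9.31%. Ch25h had 97 UMIs with IgG and 7 with Ang2 antibody, a ratio of 0.131 (interval 0.0514 to 0.281). The ratio was 0.446 (0.424 to 0.469) for Fabp4 and 0.421 (0.363 to 0.487) for Fabp5, whose place against background in LECs was not resolved. Of the 8650 genes, 2.32% were at least 1.5-fold lower.

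Fabp4 also differed between the libraries in cells that should lack it. Its level with IgG and with Ang2 antibody was 791 and 107 CPM in fibroblasts, 210.2 and 169.8 CPM in cartilage cells, and 396 and 102 CPM in keratinocytes. The part of free RNA in the LEC ratio was not tested. Gpihbp1 had a ratio of 0.708 (0.663 to 0.756), Apoe of 0.754 (0.679 to 0.837), and Scarb1 of 1.01 (0.873 to 1.17), the one member of 7 whose interval included 1.

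The LEC ratios differed between clusters. Cd36 was higher in 5 of 6 LEC clusters, at 2.37 (1.95 to 2.88) in capillary LECs led by Mrc1, 2.55 (2.17 to 2.98) in the cluster led by Gdf15 and Lcn2, and 0.510 (0.360 to 0.713) in valve LECs led by Slc41a1. Fabp4 was at 0.952 (0.828 to 1.09) in capillary LECs and 1.01 (0.793 to 1.27) in valve LECs led by Cd79a, and its other 4 intervals lay below 1. The Gdf15 cluster held 5285 of the 7787 Fabp4 UMIs of IgG LECs. It had 514 of the 1308 LECs with IgG and 211 of the 745 with Ang2 antibody. LECs led by Pkhd1l1 numbered 212 and 89, and those led by Sh3gl3 38 and 26. The numbers were 276 and 219 in capillary LECs, 154 and 117 in Cd79a valve LECs, and 114 and 83 in Slc41a1 valve LECs. In the ratios over all LECs, the share of a cluster and the level within it cannot be told apart. Apoe ran from 0.176 to 2.16 over the 6 clusters, with 2 intervals above 1 and 3 below. In capillary LECs it was 1.55 (1.11 to 2.17), higher rather than lower. Ch25h had 66 UMIs with IgG and 0 with Ang2 antibody in the Gdf15 cluster, a ratio of 0 with an interval up to 0.138. Without that cluster its LEC ratio was 0.339 and that of Cd36 1.75, an alternative added after the data were seen.

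In blood endothelial cells the ratio was nearer 1 than in LECs for 6 of the 7 members and farther for Scarb1, and these differences were not tested. Cd36 was at 1.28 (1.247 to 1.304), Gpihbp1 at 1.22 (1.19 to 1.249), and Scarb1 at 1.11 (1.08 to 1.14). Fabp4 was at 0.847, Fabp5 at 0.726, and Apoe at 0.784, and Ch25h was lowest at 0.282 (0.216 to 0.363) on 304 and 77 UMIs. In these cells 0.882% of 8620 genes were at least 1.5-fold higher and 1.26% at least 1.5-fold lower. Gpihbp1 was thus lower in LECs and higher in blood endothelial cells with the antibody, a difference that was not tested.

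**Figure D5:**
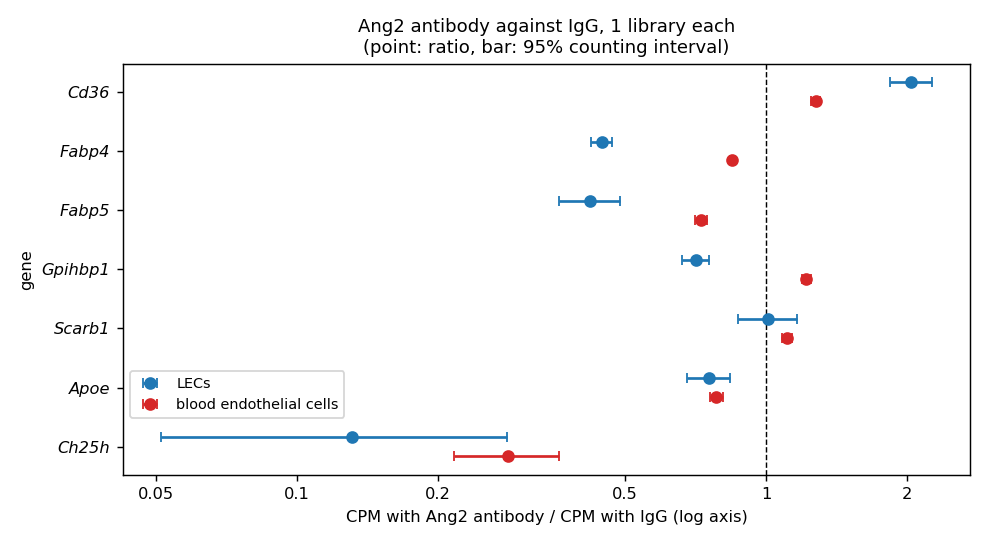
Ratio of CPM with Ang2 antibody to CPM with IgG (log axis) for 7 members in LECs and blood endothelial cells, 1 library each, with bars for the 95% counting interval and a dashed line at 1. Cd36 lies at 2.04 in LECs and 1.28 in blood endothelial cells, and Ch25h at 0.131 and 0.282.

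Across the 3 models, Cd36 in the sum over LECs lay higher than in the respective controls, and Fabp4, Apoe, and Ch25h lay lower. Each model has its own controls. Cd36 was 4.92-fold higher with Tie1 deletion, 13.7-fold with Tie1/2 deletion, and 2.04-fold with Ang2 antibody. The value for Apoe was 0.313, 0.0875, and 0.754 of control, for Ch25h 0.427, 0.0548, and 0.131, and for Fabp4 0.169, 0.0354, and 0.446. Ages, platforms, and replication differ between the models, so these values stand side by side only, and no gene was called with Tie1 deletion by edgeR. With Tie1 deletion, Apoe overlapped its controls in capillary-marker wells and changed little by the mean of CPM over wells. In the droplets, Apoe went both ways between LEC clusters. Over all IgG LECs together, Cd36 did not stand above background there, and Fabp4 lay close to it. Single LEC clusters were not compared with background in this way, and Fabp4 UMIs were spread unevenly over them.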

How the data were processed

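Per the labels and the submitters' processing notes, the authors aligned plate reads with TopHat2 2.1.1 to GRCm38, handled alignments with SAMtools 0.1.18, and counted reads per gene with featureCounts of Subread. The deposited plate values are raw counts per gene and well, and the deposited droplet values are UMI counts from Cell Ranger, 6.0.2 in the matrix header and 2.1.1 in the notes. The plate tables were joined by symbol, which kept 95.88% to 97.1% of the counts. Rows that name no gene and 92 spike-in transcripts were left out.

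Wells with at least 1000 genes (3028 of 3048) and cells with at least 500 genes and no more than 10% of UMIs from mitochondria entered the analysis and were clustered without the members (scanpy 1.11.5, leidenalg 0.10.2, resolution 1). Classes were named where at least 3 fixed markers were raised 1.5-fold. Doublets were not removed: Scrublet marked 0.582% and 0.0675% of cells. The libraries shared 5 barcodes. Counts were summed per plate over LECs or a class and tested in 1 edgeR fit over 8 plates (R 4.3.3, edgeR 4.0.16, filterByExpr, TMM, threshold 0.05). The SE is the log2 fold change divided by the root of F. CPM was compared between classes, paired by plate, as log2(CPM + 1). Alternatives used DESeq2 1.42.0, limma 3.58.1, other filters, a replicate block, and plates left out. The number of LECs the study clustered is below the 2705 used here. The members and the gene lists were chosen with earlier results of these data known. All members are named, listed genes where called, and the 3 genes most like each member. Tests were tried on simulated data.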

Additional observations from a re-analysis of the deposited data

Results flagged for a closer look

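Gpihbp1 went in opposite directions with the Ang2 antibody, with a ratio to IgG of 0.708 in LECs and 1.22 in blood endothelial cells. The difference was not tested, with 1 library per antibody.

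Among 28 groups of 4 control plates (7 members, 4 kinds of LEC sums), 3 held a plate far above the others, where chance gives about 1 in 20 groups. Fabp5 in the capillary-marker class was at 2.52 CPM on Tie1/2 fl/fl replicate 2, with the other plates at 0.207 to 0.582. Fabp5 in collectors was at 31.6 CPM on Tie1 fl/fl replicate 2, with the others at 7.66 to 9.31, and Ch25h in collectors was at 49.2 CPM on Tie1 fl/fl replicate 1, with the others at 14.0 to 19.9.

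Apoc1 appeared in wells that the comparisons do not use. It was at 19.4 CPM in the 30 keratinocyte wells and at 0.801 CPM in the 293 fibroblast wells, above the 0.425 and 0.200 CPM that a count of 0 allows, while all LEC wells together held 3 counts.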

How the results depend on the processing

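With edgeR, Tie1 deletion gave 0 called genes, and DESeq2 gave 178 and no filter on low counts 290, each with 3 members called. Under the same settings Tie1/2 deletion gave 1026 and 1215 genes against 238, the difference between the deletions 446 and 644 against 26 with 2 members each, and the average 881 and 1107 against 202. The difference gave 14 genes with the table layout as a term and 17 with no cluster removed. The number in the sample titles is shared between control and deleted plates only in the single floxed strain (2 pairs, r = 0.176 between their deviations). Whether plates of the same number share a litter or day is not stated. Plate identifiers ran in consecutive pairs of a control and a deleted plate in both strains, and no fit took these pairs as blocks. Taken as a replicate block, the title number left 2 members called with Tie1/2 deletion and 2 in the average, against 4 each. The 4 plates of the double floxed strain alone also left 2. Leaving out 1 plate gave 84 to 222 genes and 1 to 3 members for Tie1/2 deletion, 4 to 17 genes for the difference, 45 to 150 genes and 2 to 3 members for the average, and 0 to 8 called pairs of classes. The lowest came without Tie1/2 fl/fl replicate 1 for Tie1/2 deletion, without Tie1 fl/fl replicate 1 or either Tie1/2 fl/fl plate for the difference, and without Tie1 iΔLEC replicate 2 for the average. The class pairs fell to 0 without any of the plates other than Tie1/2 iΔLEC replicate 1, without which 8 passed. With a plate left out the smallest exact p is larger, so a pair passes only where several pairs reach that p. On the 4 control plates alone, 0 pairs of classes could be called. Tie1/2 deletion within classes gave 3 member calls with coarser and 2 with finer clusters, against 1. The cause of these shifts was not tested.

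Directions turned only for changes that were not called. Fabp5 with Tie1 deletion was at 0.030 by the mean of CPM per well and ranged from -2.34 to 0.24 with 1 plate left out, and from -1.40 to 0.041 with Tie1/2 deletion. Scarb1 with Tie1 deletion was at 0.011 with no cluster removed and ranged from -0.22 to 0.18. Gpihbp1 with Tie1/2 deletion ranged from -0.98 to 0.026, the difference for Fabp4 was 0.15 with no cluster removed, and Cd36 in valves with Tie1 deletion was -1.01 with finer clusters. Cd36, Fabp4, Apoe, and Ch25h kept their direction in all 17 alternatives of both deletions. Each genotype had 2 plates, which limits every call, and in LECs of the droplet libraries Ch25h and Apoc1 rest on few UMIs.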
